A study of Mus musculus with 20 samples.

Results

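Integrins are cell-surface receptors made of 1 alpha and 1 beta chain, and laminins are basement membrane proteins made of 1 alpha, 1 beta and 1 gamma chain. The genes of both families were taken from the table of all 55891 genes by their symbols alone, and 37 matched. They were 18 integrin alpha genes, 8 integrin beta genes and 11 laminin chain genes. No measured value was used to choose them.

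RNA was sequenced from primary renal tubular epithelial cells (TECs) of mice of the strain labelled B6.129-Ptprz1tm1Nmo, which carry a targeted allele of Ptprz1, a receptor tyrosine phosphatase gene. There were 20 libraries in 4 groups of 5. Cells labelled PTPRZ_het or PTPRZ_KO were left untreated as control or were given lipopolysaccharide (LPS, 100 ng/mL) with interferon gamma (IFNγ, 10 ng/mL) for 24 h. All groups carry the targeted strain background, so the het cells are not wild type. All cells grew in medium with serum, EGF, a prostaglandin, a thyroid hormone, hydrocortisone, epinephrine and insulin. Age and sex of the mice were not given. Each library has an animal ID. The 10 control libraries name 10 different animals and so do the 10 stimulated libraries. Animals 1, 2, 4 and 9 are het in both states and animals 3, 6, 8 and 10 are KO in both, whereas animals 5 and 7 are listed under both genotypes. How the cultures of an animal were split is not given, so each p-value below speaks of the variation among these libraries and may be technical in part.

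In the kidney, tubular cells sit on a basement membrane whose mature laminin contains the Lama5, Lamb1 or Lamb2 and Lamc1 chains, and they hold it mainly through integrins that pair an alpha chain with Itgb1. Lama1 is a chain of the developing tubule, and Lama3 and Lamb3 are chains of a laminin found under stratified epithelium, which Itga6 with Itgb4 holds in hemidesmosomes. Other integrins bind collagens (Itga1, Itga2, Itga10, Itga11), ligands with an RGD motif (Itga5, Itga8, Itgav, Itga2b) or, on leukocytes, cell-surface ligands of the ICAM family (Itgal, Itgam, Itgax with Itgb2).

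Total counts ran from 12899528 to 20411411 per library. The targeted gene gave 0 to 4 counts in the het libraries and 0 to 7 in the KO libraries (at most 0.454 CPM, a gene's count per 1000000 counts of the library), so it could not check the genotype labels. The summed level of 5 genes induced by IFNγ (Nos2, Gbp2, Tap1, Cxcl9 and Irf1) was 54.7 to 79.8 CPM in 8 control libraries and 6038 to 15456 CPM in 8 stimulated ones. The 4 libraries of animals 4 and 8 went against their labels. Het control replicate 5 had 901 CPM and KO control replicate 4 had 2226 CPM, while het LPS+IFNγ replicate 5 had 58.7 CPM and KO LPS+IFNγ replicate 4 had 67.2 CPM. No library was moved to another group, and the genes were tested in all 20 libraries and in the 16 of the other animals. Markers of the proximal tubule were low (24.5 to 620.4 CPM summed over 15 genes): Lrp2 and Cubn were counted in 20 of 20 libraries and Slc34a1 was at 0 in 17 of them. Fibroblast markers summed to 231 to 22550 CPM over 11 genes, with Acta2, Tagln and Col1a1 the leading ones by median. Others of this list were low: Lum was at 0 in 13 of 20 libraries, Dcn reached 2.65 CPM and Pdgfra 1.72 CPM. Podocyte markers summed to 91.6 to 580.3 CPM over 6 genes. In RNA from a whole culture, fewer cells of a type and less RNA per cell cannot be told apart.

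Together the 37 genes held 0.577% to 1.1% of a library's counts, and their levels differed widely per transcript length. Per kb of transcript, Itgb1, the beta chain shared by most matrix receptors, had the highest median level over the 20 libraries, 1075 CPM per kb. Lamb1 followed with 152, Itga5 with 105, Itga3 with 105, Itgb5 with 85.6, Itgav with 79.2, Lama5 with 54.7 and Lamc1 with 43.8 CPM per kb. Itga5 and Itga3 could not be ordered, since their ranges of 17.4 to 218 and 53.5 to 274 CPM per kb overlapped almost wholly. Lamb3 (4.82), Lama1 (3.82), Lama3 (1.22), Lama4 (1.15) and Lama2 (0.238 CPM per kb) were lower in median. Of the low chains, Lama3 ran from 0.0514 to 13.3 CPM per kb, so its place in this order differed between libraries. At the bottom, Itgad, Itgae, Itgb7, Itga8 and Lamc3 did not pass the filter on low counts, and 32 genes were tested. Itgad had counts in 1 library only, at 0.0572 CPM. Itga8 reached 0.930 CPM, Itgae 0.366 CPM and Lamc3 0.576 CPM, and Itgb7 reached 3.43 CPM in het stimulated replicate 1 and at most 0.247 CPM elsewhere.

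**Figure D1:**
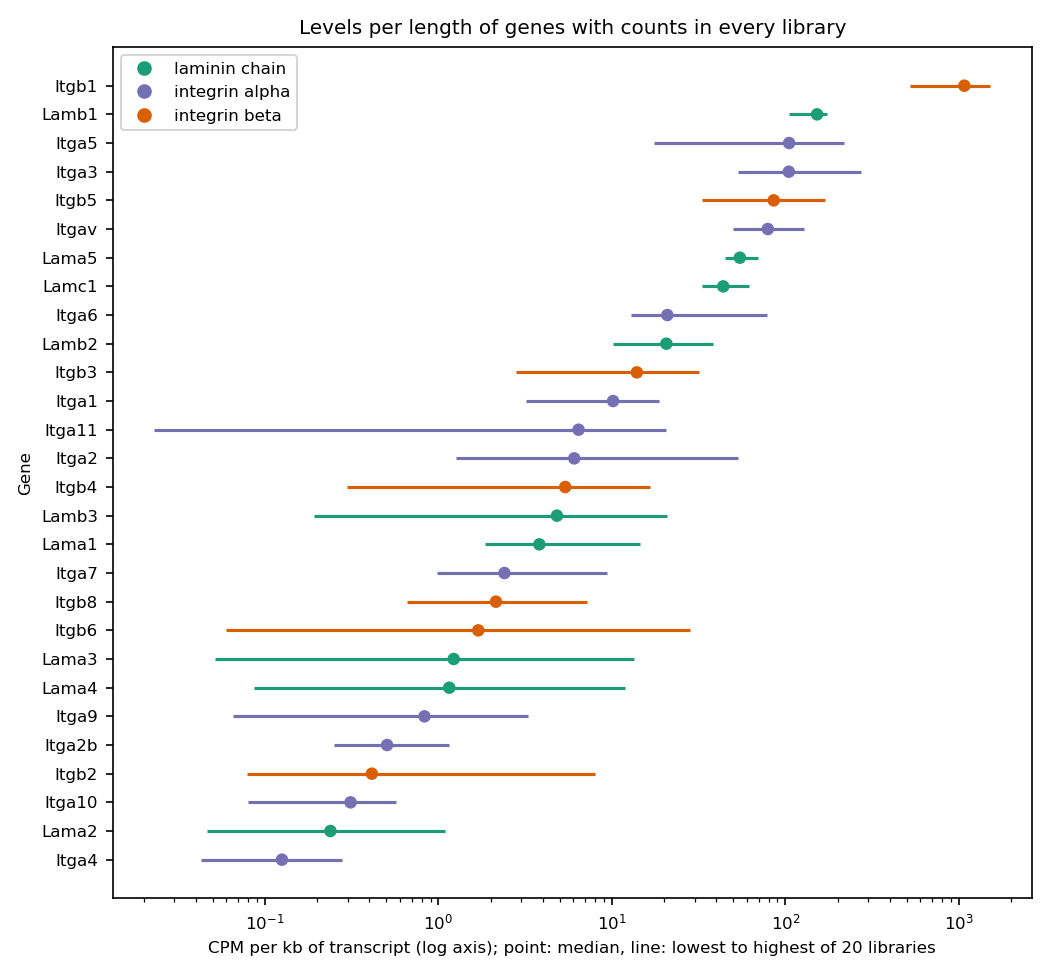
Levels of genes with counts in every library, as CPM per kb of transcript on a log axis. Points are medians and lines run from the lowest to the highest of the 20 libraries: Lama5, Lamb1 and Lamc1 have short lines, and Lama3, Lamb3, Itgb4, Itgb6 and Itga11 long ones.

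Few of these genes were called after stimulation. With all 20 libraries, edgeR's quasi-likelihood test with Benjamini-Hochberg adjustment called 0 of 32 in either genotype, where 0% of the 14568 genes tested were called. Before adjustment 1 of the 32 had a p under 0.05 in het cells and 3 had one in KO cells. Of all 14568 genes, 1981 and 1307 had one. DESeq2 called 0 of 32 in both, where it called 3.32% of all genes in het and 0.79% in KO cells. Without animals 4 and 8, edgeR called 2 of 32 in het cells, both higher, where 7.15% of 14630 genes were called (5.67% higher and 1.48% lower). It called 3 of 32 in KO cells, 2 higher and 1 lower, where 5.76% were called (4.81% higher and 0.95% lower). These shares, 6.25% and 9.38%, were close to those of all genes. The median log2 fold change of the 32 was -0.21 in het and -0.16 in KO cells, beside -0.03 and -0.01 for all genes tested. Leaving out animals 5 and 7 as well, whose genotype is given 2 ways, 0 of 32 were called in either genotype, where 4.09% of all genes were called in het and 3.13% in KO cells. DESeq2 called 4 of 32 in het and 3 in KO cells (11.5% and 9.04% of all genes), and limma-voom 0 and 2 (6.23% and 4.97%). With no filter on low counts edgeR called 0 and 2 (3.16% and 2.69% of all genes), and with the 2 groups of a comparison alone 0 and 4 (3.16% and 11%). Called in at least 1 genotype were Lama1, Lama4 and Itga2, which rose, and Itga1, which fell.

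**Figure D2:**
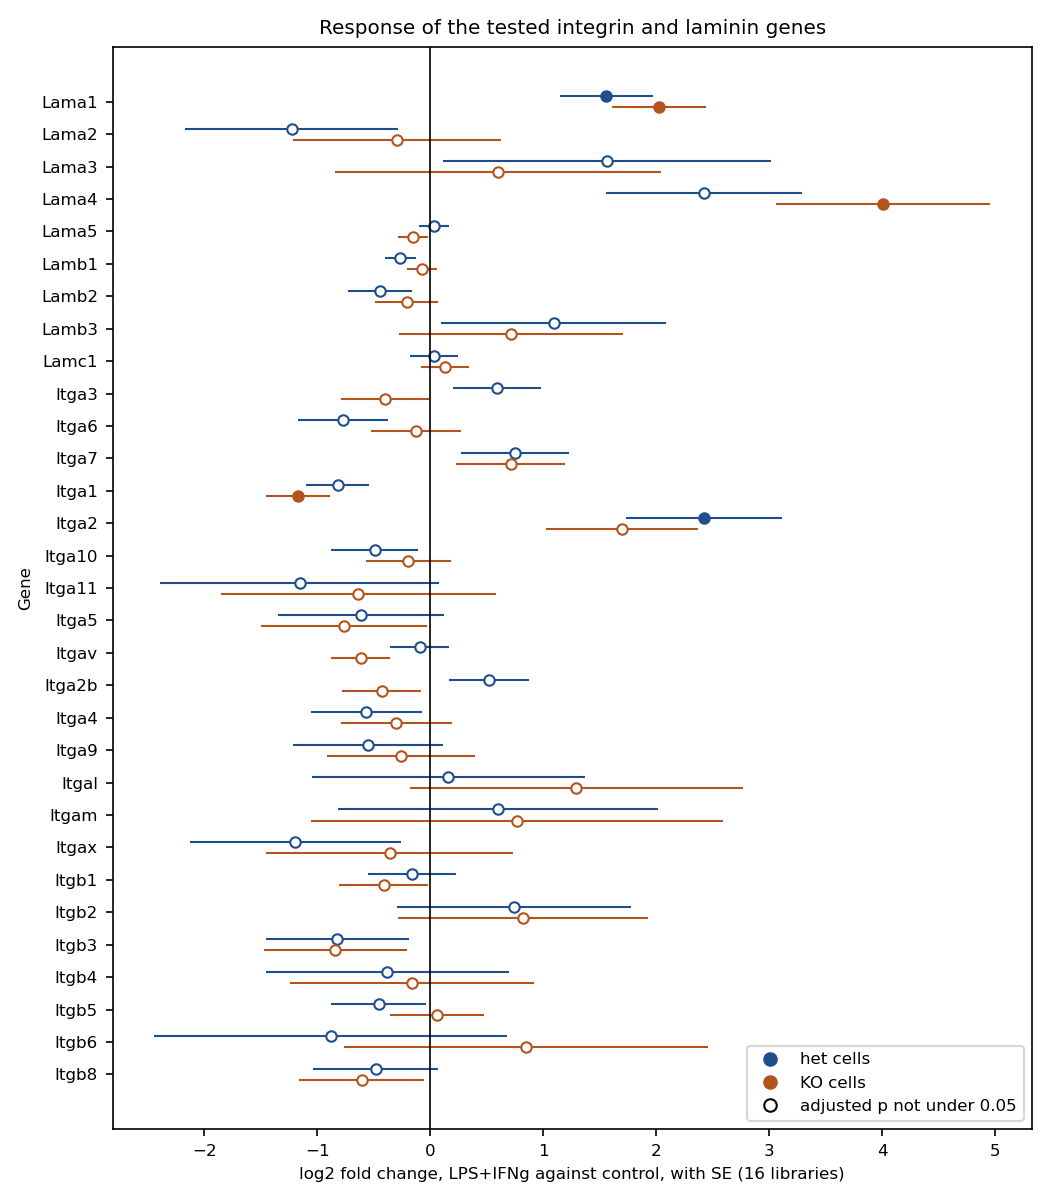
Log2 fold change of LPS+IFNγ against control with its SE for tested genes in the 16 libraries, in het (blue) and KO (orange) cells. Filled points passed an adjusted p of 0.05: Lama1 in both genotypes, Itga2 in het cells, and Lama4 and Itga1 in KO cells.

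Among the laminin alpha chains, Lama1 rose in both genotypes in the 16 libraries. It stood at 27.3, 18.6, 17.6, 42.1 and 139 CPM in het control replicates 1 to 5 and at 19.0, 127, 59.2, 74.4 and 29.6 CPM in het LPS+IFNγ replicates 1 to 5. In KO cells the levels were 30.6, 22.4, 20.1, 65.9 and 29.5 CPM in control replicates 1 to 5 and 81.8, 112, 91.6, 19.5 and 112 CPM in stimulated replicates 1 to 5. Within each KO state 1 library stood far from the other 4, and both were from animal 8; the highest het control library was from animal 4. Without animals 4 and 8 the KO groups did not overlap. In het cells they did, because stimulated replicate 1 was at the control level. How many of all genes tested have groups without overlap was not counted, here or for the genes below. Mean Lama1 was 26.4 ± 11.3 CPM in het control and 69.9 ± 44.6 CPM in het stimulated cells (SD, n = 4 each). The KO means were 25.7 ± 5.18 and 99.5 ± 15.3 CPM.

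By edgeR Lama1 had, in the 16 libraries, a log2 fold change of 1.56 (SE 0.41, adjusted p = 0.0319) in het and 2.03 (SE 0.42, adjusted p = 0.00747) in KO cells. The responses of the 2 genotypes differed by 0.47 (SE 0.57, adjusted p = 1.00), which did not pass the test. In KO cells the call held without each of the 16 libraries in turn (adjusted p 0.000364 to 0.0343). It was lost without animals 5 and 7 (adjusted p = 0.0894). In het cells it was lost without control replicate 1, 2 or 3 or stimulated replicate 2 or 4 (adjusted p up to 0.104). The het call was also lost with the animal as a block (log2 1.25, adjusted p = 0.105). Limma-voom, no filter on low counts, 2 groups only and leaving out animals 5 and 7 lost it too (adjusted p up to 0.217 by edgeR or limma). Within the 6 animals other than 4 and 8 with both libraries under 1 genotype, Lama1 rose in 5 and fell in animal 1 (log2 ratio -0.52). With all 20 libraries the log2 fold changes by edgeR were 0.45 (adjusted p = 0.806) in het and 1.36 (adjusted p = 0.531) in KO cells.

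Lama4, an alpha chain typical of vascular and mesenchymal basement membranes, rose in KO cells. Its het levels were 11, 1.05, 7.05, 1.84 and 14.7 CPM in control replicates 1 to 5 and 71.6, 12.2, 4.65, 12.2 and 2.87 CPM in stimulated ones. KO cells had 1.91, 0.522, 1.21, 6.91 and 2.40 CPM in control replicates and 14.1, 13.7, 47.6, 1.88 and 15.8 CPM in stimulated ones. The libraries of animals 4 and 8 were the highest of the controls and the lowest of the stimulated cells in both genotypes. Without them the KO groups did not overlap and the het groups did. The log2 fold change by edgeR in the 16 libraries was 4.01 (SE 0.95, adjusted p = 0.0198) in KO and 2.42 (SE 0.86, adjusted p = 0.119) in het cells. The difference of the responses, 1.58 (SE 1.2, adjusted p = 1.00), did not pass. With all 20 libraries Lama4 had 1.68 (adjusted p = 0.460) in het and 2.90 (adjusted p = 0.355) in KO cells.

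Lama4 was also compared within animals. In each of the 6 animals other than 4 and 8 with both libraries under 1 genotype, it was higher after stimulation, by a log2 ratio of 2.71 in animal 1, 3.53 in animal 2, 2.89 in animal 3, 3.50 in animal 6, 2.73 in animal 9 and 2.72 in animal 10. Of all genes tested, 11.5% were higher in each of these 6 animals. The control levels of Lama4 in these 6 animals ran from 1.05 to 11 CPM. With the animal as a block, edgeR gave 3.05 (SE 0.18, adjusted p = 1.93e-05) in het and 3.08 (SE 0.18, adjusted p = 2.55e-05) in KO cells. Both genotypes were then called. This fit kept animals 5 and 7 under both genotypes, as labelled. In animals 4 and 8 the library labelled stimulated was lower than the one labelled control, by log2 ratios of -2.36 and -1.88. Without the block, the call in KO cells was lost without control replicate 1, 2 or 3 or stimulated replicate 3 (adjusted p up to 0.0750) and without animals 5 and 7 (adjusted p = 0.153). The summed level of 8 endothelial markers ran from 19.0 to 84.2 CPM in het control and 14.9 to 63.2 CPM in het stimulated libraries. In KO libraries it was 38.6 to 102 CPM in control and 37.3 to 77.6 CPM in stimulated ones. Over all libraries the sum was led by Flt1 (10.8 to 100.0 CPM), with Cdh5 at most 3.07 CPM and Tek at most 0.517 CPM. The part of endothelial RNA in the result was not tested.

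**Figure D3:**
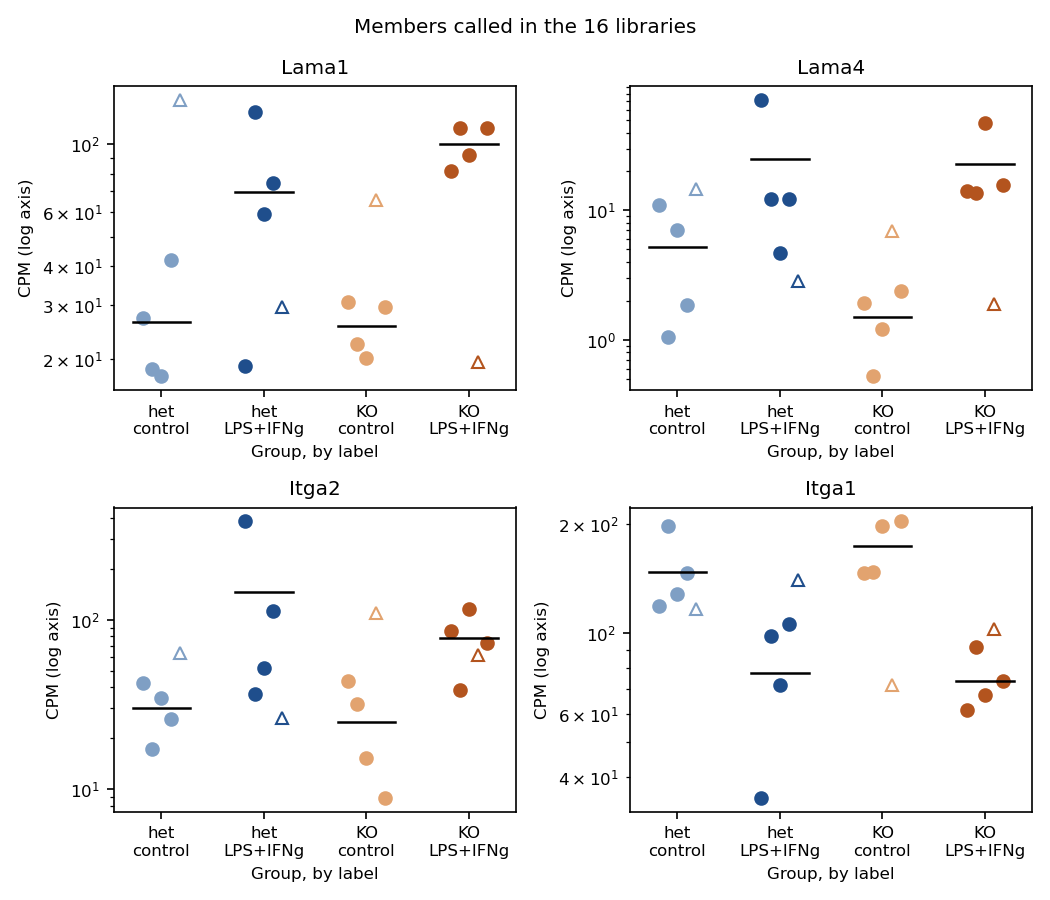
CPM of Lama1, Lama4, Itga2 and Itga1 by group on log axes, 1 point a library. Open triangles are the libraries of animals 4 and 8 and bars are means of the 4 other libraries: for Lama4 and Lama1 the triangles lie high among controls and low among stimulated cells.

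Lama3 and Lamb3 varied widely between libraries. Lama3 was at 26.1, 1.67, 3.50, 73.7 and 11.8 CPM in het control replicates and at 141, 2.39, 18.8, 112 and 9.61 CPM in het stimulated ones. In KO cells it was at 36.6, 13.8, 1.26, 101 and 0.543 CPM in control and at 59.9, 2.58, 12.0, 78.1 and 2.06 CPM in stimulated replicates. The same cultures were high or low in both states: animals 1, 9, 3 and 8 gave the 8 highest libraries and animals 2, 6 and 10 had low ones.

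Lamb3 had a similar order of libraries, with 24.4, 5.32, 12.3, 59.9 and 27.5 CPM in het control and 63.3, 11.2, 20.9, 101 and 22.5 CPM in het stimulated replicates. It had 42.4, 15.0, 5.17, 87.9 and 0.930 CPM in KO control and 58.9, 10.1, 24.5, 81.3 and 7.04 CPM in KO stimulated replicates. All 4 groups overlapped for both genes.

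On the log2 scale both chains varied together from library to library. Over the 10 control libraries, each of another animal, Pearson's r was 0.957 for Lama3 and Lamb3 (rho 0.964). The permutation p of r was 1e-05, the smallest that the permutations can give, and 3e-05 after Benjamini-Hochberg adjustment over the 18 relations computed. Over the 10 stimulated libraries r was 0.971 (rho 0.915, adjusted permutation p of r = 0.00016). Without the 2 libraries farthest from the median of Lama3, r was 0.962 in control and 0.976 in stimulated libraries. In the 5 het and the 5 KO control libraries alone, r was 0.958 and 0.977.

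The chains of the main kidney laminin gave lower values. For Lama5 and Lamb1 r was 0.733 in control libraries (rho 0.588, adjusted permutation p of r = 0.0256). It was 0.323 without the 2 farthest libraries, but 0.843 in the 5 het and 0.882 in the 5 KO libraries alone. In stimulated libraries it was 0.295 (rho 0.212, adjusted permutation p = 0.453). For Lamb1 and Lamc1 r was 0.512 in control (rho 0.406, adjusted permutation p = 0.153) and 0.480 in stimulated libraries (rho 0.297, adjusted permutation p = 0.181). Without the 2 farthest libraries these were 0.935 and 0.769, and in the 5 KO control libraries alone r was 0.931, so the relation of Lamb1 with Lamc1 turned on a few libraries. Lama5 and Lamc1 had 0.577 (rho 0.600) in control and 0.214 (rho 0.042) in stimulated libraries, with adjusted permutation p-values of 0.103 and 0.569.

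Krt7, a keratin of simple epithelia listed among the markers of other tubule segments, led a sum that varied with Lama3 and Lamb3. The summed level of 14 markers of the loop of Henle to the collecting duct ran from 2.17 to 156 CPM. Its r with Lama3 and Lamb3 was 0.970 and 0.935 in control libraries (rho 0.988 and 0.939; adjusted permutation p of r 3e-05 and 0.000157). In stimulated libraries r was 0.950 and 0.932 (rho 0.891 and 0.879; adjusted permutation p of r 0.000311 and 0.00033). This sum was nearly all Krt7, at 0.388 to 153 CPM, and Scnn1a, at 0.433 to 9.99 CPM. Slc12a1, the transporter of the thick ascending limb, did not follow it: it was at 0 to 0.172 CPM in the 4 libraries of animals 1 and 9, where Lama3 was high, and reached 1.2 CPM elsewhere. Segment-defining markers were at or near 0: Foxi1 and Atp6v1b1 at 0 in 20 of 20 libraries, Aqp2 in 19, Kcnj1 in 17 and Umod in 15. The part of the cell makeup in the levels of Lama3 and Lamb3 was not tested.

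**Figure D4:**
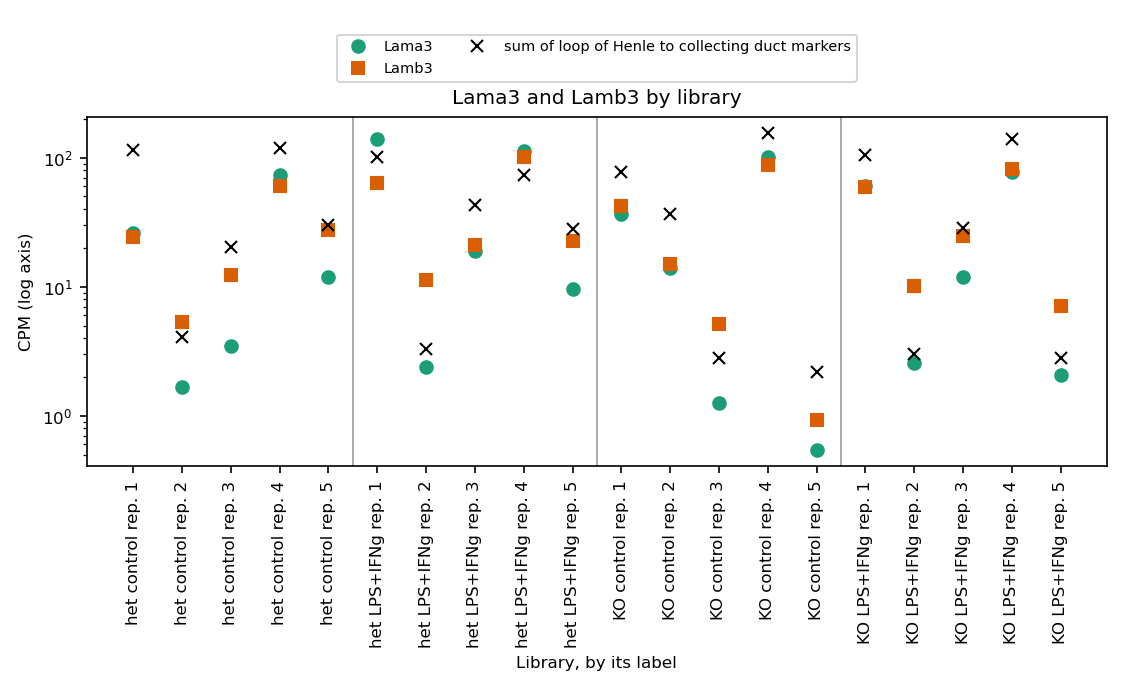
CPM of Lama3, Lamb3 and the summed loop of Henle to collecting duct markers in the 20 libraries, on a log axis. The 3 symbols move together from library to library and the 4 groups, divided by lines, overlap.

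Against this spread, the response of Lama3 and Lamb3 was not called by the main test. For Lama3 edgeR gave, in the 16 libraries, 1.56 (SE 1.5, adjusted p = 0.601) in het and 0.60 (SE 1.4, adjusted p = 0.911) in KO cells, on the log2 scale. Within animals, Lama3 and Lamb3 were each higher after stimulation in 6 of 6 animals, as were 11.5% of all genes. The log2 ratios were 0.52 to 2.43 for Lama3 and 0.47 to 2.92 for Lamb3. In animals 4 and 8 they were lower in the library labelled stimulated, by -0.30 and -0.37 for Lama3. With the animal as a block, edgeR called both genes higher in het cells (log2 1.44 and 1.1, adjusted p = 0.0305 and 0.0459) and neither in KO cells (adjusted p = 0.143 and 0.0741). A block of estimated correlation in limma called neither in het cells (adjusted p = 0.300 and 0.174).

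Lama5, Lamb1 and Lamc1, which make up the main laminin of mature tubules, varied little between libraries. Lama5 was at 511, 681, 656, 663 and 702 CPM in het control and 591, 624, 515, 626 and 791 CPM in het stimulated replicates. KO control replicates had 648, 560.0, 684, 618 and 773 CPM and stimulated ones 584, 576, 518, 621 and 608 CPM. The 4 groups overlapped. Its log2 fold change by edgeR in the 16 libraries was 0.03 (SE 0.13, adjusted p = 0.933) in het and -0.15 (SE 0.13, adjusted p = 0.664) in KO cells.

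Lamb1 had 735, 845, 954, 963 and 946 CPM in het control and 579.6, 735, 682, 665 and 868 CPM in het stimulated replicates. In KO cells it had 849, 847, 873, 836 and 911 CPM in control and 654, 784, 832, 899 and 894 CPM in stimulated replicates. The het groups of the 16 libraries touched without overlapping. Lamb1 was lower after stimulation in 6 of 6 animals, as were 25.8% of all genes. Its log2 difference in het cells, -0.27 (SE 0.14, adjusted p = 0.287 by edgeR), did not pass. Lamb2, the beta chain that replaces Lamb1 in mature glomerular basement membrane, had 87.4, 142, 141, 114 and 119.5 CPM in het control and 58.1, 109, 103, 56.8 and 132 CPM in het stimulated replicates. KO cells had 119, 111, 144, 85.7 and 216 CPM of Lamb2 in control and 91.8, 122, 118, 93.3 and 153 CPM in stimulated replicates. It too was lower in 6 of 6 animals and was called in het cells only with the animal as a block (log2 -0.46, adjusted p = 0.0342).

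Lamc1, the gamma chain of most laminins, was at 261, 358, 472, 250.5 and 434 CPM in het control and 319.6, 379, 304, 259 and 413 CPM in het stimulated replicates. KO control replicates had 309, 309, 368, 305 and 379.7 CPM and stimulated ones 311, 362, 407, 296 and 348 CPM. Its log2 fold changes were 0.03 (SE 0.21) and 0.13 (SE 0.21), with edgeR adjusted p-values of 0.955 and 0.856. Lama2, the alpha chain of muscle and nerve basement membrane, was low, with group means of 2.09 to 3.50 CPM. It was called lower in KO cells only with the animal as a block (log2 -0.96, adjusted p = 0.0395).

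Of the laminin receptors, Itgb1 was the most abundant and was not called. It was at 2006, 5782, 4406, 2857 and 4356 CPM in het control and 2194, 4012, 4191, 2061 and 4473 CPM in het stimulated replicates. KO cells had 4969, 5492, 5224, 4495 and 2516 CPM in control and 3717, 3899, 3365, 5328 and 2240 CPM in stimulated replicates. Animals 1, 9 and 10 gave the 6 lowest libraries, whatever the state. Log2 fold changes in the 16 libraries were -0.16 (SE 0.39) and -0.41 (SE 0.39), with edgeR adjusted p-values of 0.862 and 0.708.

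Itga3, which with Itgb1 binds laminins with Lama3 or Lama5, had 563, 556, 261, 630.3 and 329.9 CPM in het control and 1334, 424, 574, 401 and 425 CPM in het stimulated replicates. In KO cells it was at 555, 663, 593, 495 and 405 CPM in control and 533, 472, 260.1, 522 and 355 CPM in stimulated replicates. Stimulated het replicate 1 stood well above all others. The log2 fold change was 0.59 (SE 0.39, adjusted p = 0.428 by edgeR) in het and -0.40 (SE 0.39, adjusted p = 0.717) in KO cells, and their difference of -0.99 (SE 0.55, unadjusted p = 0.0923, adjusted p = 1.00) did not pass.

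Itga6 pairs with Itgb1 or, in hemidesmosomes, with Itgb4. It had 339, 69.0, 102, 175 and 97.7 CPM in het control and 157, 62.7, 55.1, 82.5 and 101 CPM in het stimulated replicates. KO control replicates had 95.6, 77.8, 84.2, 82.4 and 121 CPM and stimulated ones 69.8, 76.7, 81.6, 103 and 102 CPM. It was lower after stimulation in 6 of 6 animals, as were 25.8% of all genes. The het difference of -0.78 (SE 0.40, adjusted p = 0.291 by edgeR) was called only with the animal as a block (log2 -0.64, adjusted p = 0.0221). Itgb4 was at 36.7, 6.69, 50.8, 77.5 and 23.7 CPM in het control and 50.2, 3.12, 27.4, 37.3 and 33.2 CPM in het stimulated replicates. In KO cells Itgb4 had 59.8, 32.9, 6.49, 83.6 and 5.04 CPM in control and 52.9, 2.35, 33.1, 102 and 1.83 CPM in stimulated replicates. Its 6 lowest libraries were those of animals 2, 6 and 10, which were also low in Lama3, and its groups overlapped in every comparison.

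**Figure D5:**
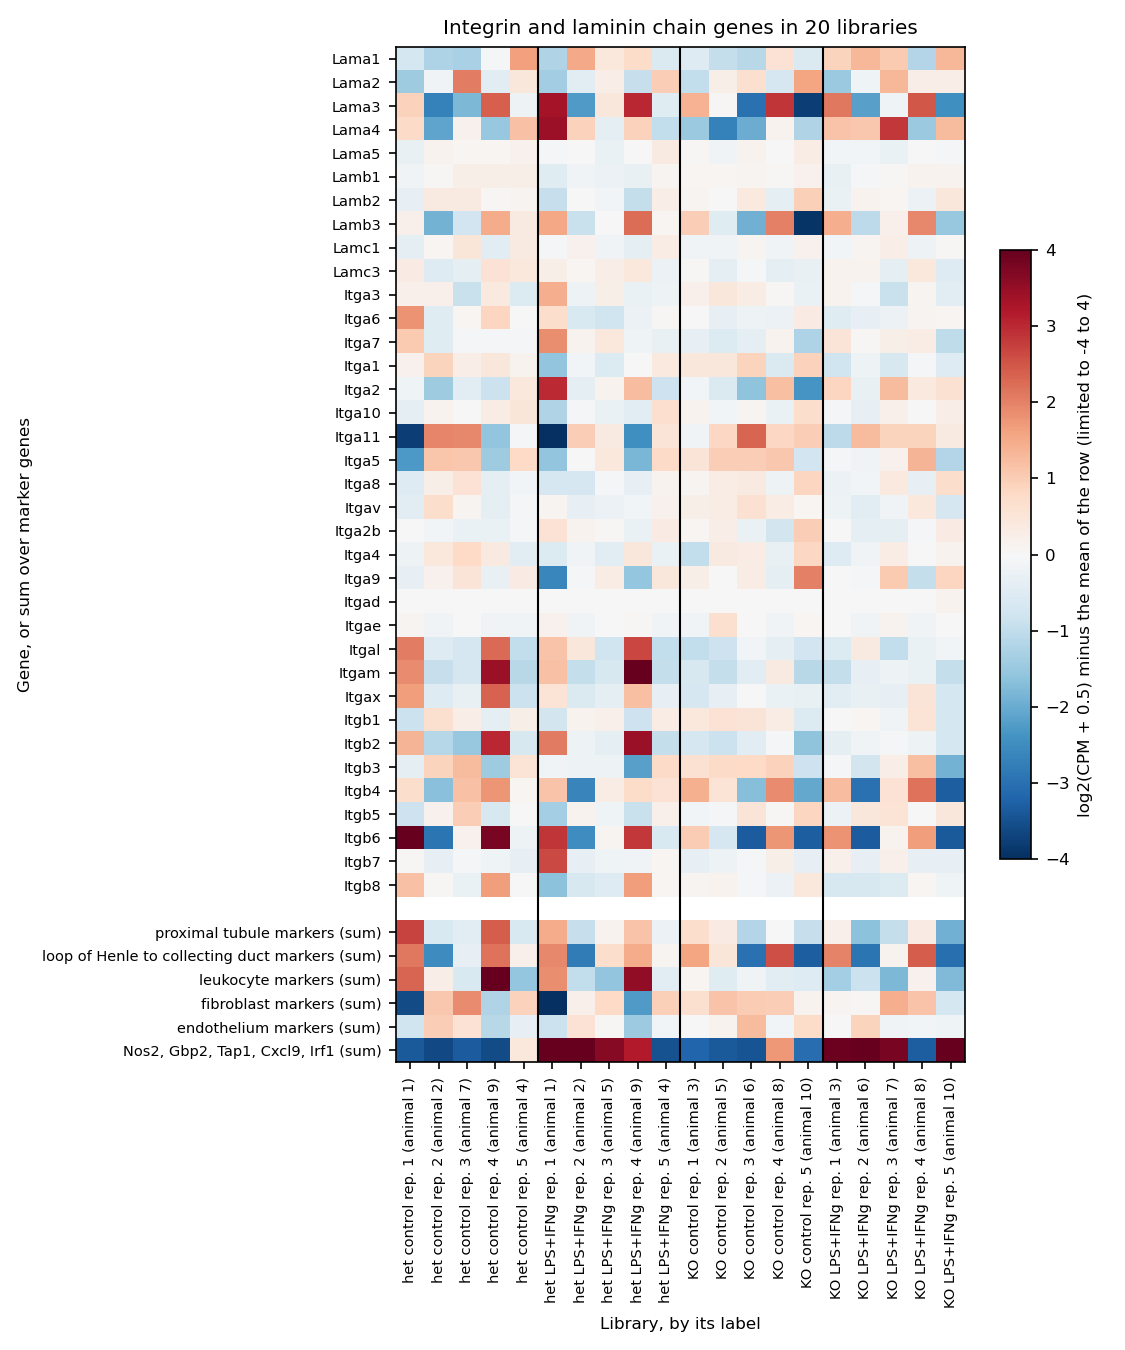
Level of the integrin and laminin genes in the 20 libraries as log2(CPM + 0.5) minus the row's mean, with summed markers of other cell types below. Columns are libraries in order of group. Lama3, Lamb3, Itgb4 and Itgb6 share a pattern over animals, and the leukocyte integrins are high in animals 1 and 9. For Lama1 and Lama4 the control and stimulated groups of the 20 libraries overlap in both genotypes. In animals 4 and 8 both genes are lower in the library labelled stimulated. In the 6 other animals with both libraries under 1 genotype, Lama4 is higher after stimulation in 6 and Lama1 in 5.

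Of the collagen receptors, Itga1 fell in KO cells and Itga2 rose in het cells. They are neighbouring genes on mouse chromosome 13. The 250 bases before the start of each are shown because their calls were opposite in direction. They come from RefSeq (build GRCm38.p6, both on the minus strand), at chr13:115101965-115102214 for Itga1 and chr13:114932101-114932350 for Itga2, and are written 5′ to 3′. Capitals mark a match, on either strand, to GGG followed after 5 free bases by CC, a loose form of the NF-kB site.
Itga1: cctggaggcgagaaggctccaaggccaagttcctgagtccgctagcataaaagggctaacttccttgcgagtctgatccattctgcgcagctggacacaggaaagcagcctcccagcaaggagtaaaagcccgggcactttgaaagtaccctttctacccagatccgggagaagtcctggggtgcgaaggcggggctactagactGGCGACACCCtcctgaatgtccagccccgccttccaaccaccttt
Itga2: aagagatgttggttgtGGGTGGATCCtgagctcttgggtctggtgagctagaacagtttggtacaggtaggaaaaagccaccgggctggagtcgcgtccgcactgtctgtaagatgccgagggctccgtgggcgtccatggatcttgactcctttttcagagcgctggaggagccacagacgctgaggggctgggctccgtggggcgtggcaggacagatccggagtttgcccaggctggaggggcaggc
Each window holds 1 match, and 45.8% of 32851 promoter windows of that length hold at least 1. Neither holds a match on either strand to TTTC, 2 free bases and TTTC, a loose interferon-stimulated response element (2.98% of windows), TTCNNNGAA, the gamma-activated site (7.02%), or TGANTCA, the AP-1 site (6.75%).

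Itga1 levels were 119, 198, 129, 146 and 117 CPM in het control replicates and 35.1, 98.5, 72.1, 106 and 141 CPM in het stimulated ones. KO cells had 147, 147, 198, 71.8 and 204 CPM in control and 61.6, 91.5, 67.5, 103 and 74.1 CPM in stimulated replicates. Without animals 4 and 8, control and stimulated cells did not overlap in either genotype. The share of all genes without such overlap was not counted. Mean Itga1 was 148 ± 35.1 CPM in het control and 77.9 ± 32.0 CPM in het stimulated cells (SD, n = 4 each). The KO means were 174 ± 31.0 and 73.7 ± 12.9 CPM. By edgeR the log2 fold change was -1.17 (SE 0.28, adjusted p = 0.0219) in KO and -0.82 (SE 0.28, adjusted p = 0.101) in het cells. The responses differed by -0.35 (SE 0.39, adjusted p = 1.00), which did not pass. With all 20 libraries Itga1 had -0.90 (adjusted p = 0.340) in KO and -0.57 (adjusted p = 0.427) in het cells.

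Itga1 was lower after stimulation in 6 of 6 animals (log2 ratios -1.76 to -0.47), as were 25.8% of all genes. It was higher in animals 4 and 8 (0.27 and 0.52). With the animal as a block edgeR called it in het cells as well (log2 -0.91, adjusted p = 0.0117; KO -1.15, adjusted p = 0.00388). The KO call without the block was lost without control replicate 3 or 5 or stimulated replicate 1, 3 or 5 (adjusted p up to 0.0726), and without animals 5 and 7 (adjusted p = 0.161). Pelo lies within Itga1 on the same strand, so reads of the 2 genes could be hard to assign and the value of Itga1 is less certain.

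Itga2 had 42.5, 17.3, 34.6, 25.9 and 63.9 CPM in het control and 380.4, 36.7, 52.3, 113 and 26.4 CPM in het stimulated replicates. In KO cells it was at 43.7, 32.0, 15.2, 109.7 and 8.92 CPM in control and 85.9, 38.4, 116, 62.0 and 72.6 CPM in stimulated replicates. The groups overlapped in both genotypes, and stimulated het replicate 1 was far above every other library, the next being at 116 CPM. In the 16 libraries the log2 fold change by edgeR was 2.42 (SE 0.69, adjusted p = 0.0471) in het and 1.69 (SE 0.67, adjusted p = 0.203) in KO cells. The difference of -0.73 (SE 0.93, adjusted p = 1.00) did not pass. With all 20 libraries Itga2 had 1.85 (adjusted p = 0.253) in het and 0.87 (adjusted p = 0.827) in KO cells.

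The het call of Itga2 held in only 3 of 16 fits that left out 1 library (het stimulated replicate 2 or 3, or KO control replicate 5). Without het stimulated replicate 1 the log2 fold change was 1.26 (adjusted p = 0.219). Yet Itga2 was higher in 6 of 6 animals, by log2 ratios of 0.97 to 3.16, as were 11.5% of all genes in direction. The edgeR fit with the animal as a block gave 2.08 (adjusted p = 0.0222) in het and 1.59 (adjusted p = 0.0672) in KO cells.

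Itga11, the alpha chain of the fibroblast collagen receptor, ran from 0.114 CPM in het stimulated replicate 1 to 102 CPM in KO control replicate 3. It was low in animals 1 and 9 (0.980 and 6.22 CPM in control, 0.114 and 3.17 CPM in stimulated libraries), whose fibroblast markers summed to 519 and 2669 CPM in control and 231 and 1267 CPM in stimulated libraries. In the other 16 libraries those markers summed to at least 3784 CPM; the part of fibroblast RNA in the level of Itga11 was not tested. Itga11 was lower after stimulation in every one of the 6 animals, as were 25.8% of all genes. It was called only with the animal as a block (log2 -0.96, adjusted p = 0.0137 in het; -0.74, adjusted p = 0.0207 in KO cells). Itga10, another collagen receptor chain, had group means of 1.40 to 1.81 CPM and was not called.

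The receptors for RGD ligands and their beta chains were not called by the main test. Itgav, which binds vitronectin and latent TGF-beta with several beta chains, had 403, 906, 598, 433 and 534 CPM in het control and 607, 445, 477, 515 and 629 CPM in het stimulated replicates. In KO cells it was at 662, 684, 859, 681 and 583 CPM in control and 482, 409, 508, 743 and 351 CPM in stimulated replicates. The KO groups of the 16 libraries did not overlap, and the difference of -0.62 (SE 0.26, unadjusted p = 0.0317, adjusted p = 0.235 by edgeR) did not pass. Itga5, the fibronectin receptor chain, ran from 76.2 to 954 CPM and Itgb3 from 16.2 to 183 CPM. Itga5 was lowest in the 6 libraries of animals 1, 9 and 10, and the 4 lowest Itgb3 libraries were those of animals 9 and 10. Itgb3 was called lower in KO cells only with the animal as a block (log2 -1.06, adjusted p = 0.0305). Itgb5, a vitronectin receptor chain, ran from 108 to 554 CPM and Itgb8 from 5.55 to 60.2 CPM, and Itga2b, the platelet chain, from 0.863 to 3.95 CPM. Itga4 (0.418 to 2.71 CPM), Itga9 (0.458 to 23.1 CPM) and the laminin receptor chain Itga7 (3.95 to 37.7 CPM) were not called either.

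Itgb6, an epithelial partner of Itgav that activates latent TGF-beta, was at 135, 0.557, 8.52, 111 and 6.48 CPM in het control and 58.0, 0.937, 8.08, 56.2 and 4.73 CPM in het stimulated replicates. It had 15.5, 4.49, 0.287, 26.4 and 0.310 CPM in KO control and 27.0, 0.287, 8.22, 25.1 and 0.286 CPM in KO stimulated replicates. Animals 1 and 9 were the highest in both states. They were also the highest het control and stimulated libraries in summed proximal tubule markers, at 620.4 and 509 CPM in control and 265 and 206 CPM in stimulated libraries; the part of cell makeup was not tested. The log2 difference between KO and het control cells was -3.49 (SE 1.72, unadjusted p = 0.0621, adjusted p = 0.892 by edgeR).

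Leukocyte integrins were measured at low levels and mostly in 2 animals. Itgb2, their common beta chain, had 5.14, 0.495, 0.282, 17.2 and 0.917 CPM in het control and 8.75, 1.41, 1.22, 23.6 and 0.637 CPM in het stimulated replicates. Its KO levels were 0.896, 0.731, 1.15, 1.67 and 0.233 CPM in control and 1.23, 1.49, 1.63, 1.43 and 0.858 CPM in stimulated replicates. Replicates 1 and 4 of the het groups, from animals 1 and 9, were above all others in both states. Itgb2 was called higher after stimulation in het cells only with the animal as a block (log2 1.07, adjusted p = 0.0478 by edgeR, against 0.74 and adjusted p = 0.743 without it). Itgam, the macrophage and granulocyte chain, had 3.48, 0.0619, 0.169, 11.3 and 0 CPM in het control and 1.89, 0.0521, 0.184, 18.8 and 0.0531 CPM in het stimulated replicates. In KO control cells it had 0.179, 0.0522, 0.287, 0.863 and 0 CPM and in KO stimulated cells 0.0559, 0.345, 0.436, 0.389 and 0.0572 CPM.

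Itgal, the lymphocyte chain, and Itgax, a dendritic cell and macrophage chain, had the same pattern. Itgal was at 3.58, 0.186, 0.113, 4.26 and 0 CPM in het control and 1.66, 0.833, 0.0612, 5.74 and 0 CPM in het stimulated replicates, and at most 0.747 CPM in KO libraries. Itgax was at 2.35, 0.124, 0.226, 4.09 and 0 CPM in het control and 0.801, 0.104, 0.184, 1.58 and 0.212 CPM in het stimulated replicates, and at most 0.779 CPM in KO libraries.

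Summed leukocyte markers were high in the same libraries. Their sum over 12 genes was 93.3 and 365 CPM in the control and 67.3 and 221 CPM in the stimulated libraries of animals 1 and 9, against 4.96 to 22.1 CPM in the other 16 libraries. Lyz2 led with up to 241 CPM, and Cd3e was at 0 in 20 of 20 libraries. In the 16 libraries the differences between KO and het control cells were -4.58 for Itgam (SE 1.77), -3.70 for Itgal (SE 1.5), -2.76 for Itgb2 (SE 1.13) and -2.73 for Itgax (SE 1.02), on the log2 scale. Unadjusted p-values were 0.0212, 0.0228, 0.0285 and 0.0176, and each edgeR adjusted p was 0.892. The part of leukocyte RNA in these values was not tested.

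Between genotypes, edgeR called 0 of 32 genes in control cells, 0 in stimulated cells and 0 for the difference of the responses, in the 20 and in the 16 libraries, where 0% of all genes were called in each. Before adjustment 4, 2 and 0 of 32 had a p under 0.05 in the 16 libraries and 3, 2 and 0 in the 20. Of all genes tested, 774, 787 and 224 of 14630 had one in the 16 libraries and 499, 366 and 138 of 14568 in the 20. The 4 in control cells of the 16 libraries were the leukocyte integrin genes Itgam, Itgal, Itgb2 and Itgax, measured mostly in animals 1 and 9. DESeq2 and limma called 0 of 32 in each of these too, where DESeq2 called 0.0137% of all genes in control cells and 0.00687% for the difference of the responses in the 20 libraries, and 0% in the other comparisons. In the 16 libraries the median log2 difference of the 32 was 0.05 in control and -0.14 in stimulated cells. A p that misses the threshold does not show that the genotypes were alike: Lama4, for example, had -1.75 (SE 0.89, log2) in control cells.

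Over the 6 animals, 6 of 32 genes were higher after stimulation in each one, Itga2, Itgb2, Lama3, Lama4 and Lamb3 among them, where 11.5% of 14630 genes were. 8 of 32 were lower in each (Itga1, Itga10, Itga11, Itga6, Itga9, Itgb5, Lamb1 and Lamb2), where 25.8% of all genes were. With the animal as a block, edgeR called 10 of 32 genes in het cells, 6 higher and 4 lower, where 18.6% of all genes were called (10.7% higher and 7.96% lower). In KO cells it called 6 of 32, 2 higher and 4 lower, where 13.5% were called (8.39% higher and 5.06% lower). With a block of estimated correlation limma called 4 of 32 in each genotype, Itga1 lower and Itga2, Lama1 and Lama4 higher, where 21.5% of all genes were called in het and 14.1% in KO cells.

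Partner genes were taken from 4 lists. Of 22 other integrin ligands, 19 were tested in the 16 libraries. In het cells 2 of them were called higher and 1 lower, where 5.67% of all genes were called higher and 1.48% lower. In KO cells 2 were called higher and 0 lower, where 4.81% and 0.95% of all genes were. Icam1 and Vcam1, the endothelial and epithelial ligands of leukocyte integrins, rose in both genotypes. Het cells had 18.7 ± 11.3 CPM of Icam1 in control and 199.7 ± 146 CPM after stimulation, and KO cells 8.89 ± 1.46 and 176 ± 49.8 CPM (SD, n = 4 each; log2 3.58 and 4.36, edgeR adjusted p = 0.000205 and 4.79e-05). Vcam1 had 25.3 ± 12.3 and 492 ± 437 CPM in het and 22.5 ± 12.3 and 425 ± 179 CPM in KO cells (log2 4.4 and 4.31, edgeR adjusted p = 0.000646 and 0.000813). Frem2, a basement membrane adhesion protein, fell in het cells (log2 -3.58, SE 0.86, edgeR adjusted p = 0.0192) and had -0.96 (SE 0.80, adjusted p = 0.650) in KO cells. The list's median log2 fold change was -0.27 in het and -0.54 in KO cells; 6 of 19 ligands lay above 0 in het cells and 4 did in KO cells. Edil3 had -2.38 (SE 0.99, adjusted p = 0.185) in het cells.

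None of the 19 basement membrane partners of laminin was called in either genotype, where 7.15% of all genes were called in het and 5.76% in KO cells. Their median log2 fold change was -0.53 for het and -0.64 for KO cells, beside -0.03 and -0.01 for all genes. Of the 19, 4 lay above 0 in het cells and 1 in KO cells, where 47.1% and 49.2% of all genes did. The collagen IV chain Col4a3 had -2.03 (SE 0.74, adjusted p = 0.125 by edgeR) in het and -1.74 (SE 0.73, adjusted p = 0.233) in KO cells. Col4a4 had -1.75 (SE 0.65, adjusted p = 0.136) and -1.32 (SE 0.65, adjusted p = 0.338), and Col4a5 had -0.48 (SE 0.22, adjusted p = 0.243) and -0.67 (SE 0.22, adjusted p = 0.111). Agrn, a heparan sulfate proteoglycan that binds laminin, was the 1 partner above 0 in KO cells (log2 0.82, SE 0.27, adjusted p = 0.105 by edgeR).

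Of 27 tested genes of the cytoplasmic adhesion machinery, 0 were called in het and 1 in KO cells, where 7.15% and 5.76% of all genes were. Sharpin, which binds integrin tails and is also part of a ubiquitin ligase of NF-kB signalling, rose from 23.8 ± 3.57 to 31.6 ± 1.33 CPM in KO cells (SD, n = 4 each; log2 0.48, SE 0.09, edgeR adjusted p = 0.00453). In het cells it had 0.28 (SE 0.09, adjusted p = 0.0865). Tln2, a talin, had -1.39 (SE 0.40, adjusted p = 0.0505 by edgeR) in het cells, just short of the threshold, and Tns1, a tensin, -1.31 (SE 0.41, adjusted p = 0.0895) in KO cells. Lims2 had -0.90 (SE 0.35, adjusted p = 0.198) in KO cells. Of the 8 tested tetraspanins and hemidesmosome partners 0 were called: Tspan8 had -1.31 (SE 0.50, adjusted p = 0.146) in het and Cd63 0.28 (SE 0.12, adjusted p = 0.252) in KO cells. Over all 20 libraries 0 genes of the 4 lists were called by edgeR, where 0% of all genes were called. There 5 of the 19 ligands had an unadjusted p under 0.05 in het and 2 in KO cells, as had 1981 and 1307 of 14568 genes.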

How the data were processed

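RNA from 20 libraries of primary mouse tubular cells was sequenced with a directional kit, per the labels' protocols. The deposited table holds the authors' expected counts per gene. Salmon 1.10.2, FastQC 0.11.9, R 4.4.1, DESeq2 1.45.3 and GRCm39 are named in the submitters' processing notes, without their roles. All deposited counts were whole numbers and were used as given. Symbols came from gene tables given with the data and matched 51425 of 55891 IDs. CPM is a gene's count scaled to the library's total count. Total counts had a median of 17431039 per library, and low genes are limited by counting error.

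Genes were tested with edgeR 4.0.16 (filterByExpr, TMM factors, robust quasi-likelihood fit, 4 group means, no block) in R 4.3.3, with Benjamini-Hochberg adjustment over all genes tested and a threshold of 0.05. The genotype and stimulation groups and animal IDs come from the labels. The labels give libraries with 1 animal ID the same mouse, although animals 5 and 7 carry both genotypes. Deviations of such libraries from the group means correlated by -0.375 to 0.663, over 0.1 in 8 of 10 pairs, and negative for animals 4 and 8; the blocked values are given where they change a call. The fits with the animal as a block kept animals 5 and 7 under both genotypes, as labelled. The SE given with an edgeR value is the size of the log2 fold change divided by the square root of the test's F. Alternatives used DESeq2 1.42.0, limma 3.58.1, other filters and fewer libraries. The scripts were tested on simulated data. Correlations used log2 CPM with 100000 permutations (scipy 1.17.1). Levels per kb used the longest principal GENCODE transcript of GRCm38; because the build differs, no gene coordinates are given except the RefSeq promoter windows.

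The genes, partner lists and marker lists, and the count of animals by direction, were chosen with earlier results of these data known. Genes described in full were those called in either fit, filled to 14 by lowest unadjusted p in the 16 libraries, and main laminin chains and receptors, 21 in all. Some members enter the counts but are not reported here by name. For the partner lists up to 4 genes each were named, by lowest p. No column of the deposited table was left out.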

Additional observations from a re-analysis of the deposited data

Results flagged for a closer look

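In 84 groups of 5 libraries, 4 had 1 library far from the other 4 on the log2(CPM + 0.5) scale, by Dixon's ratio above 0.71; chance gives about 1 in 20. KO LPS+IFNγ replicate 4, from animal 8, had 19.5 CPM of Lama1, where the other 4 had 81.8 to 112 CPM. Het control replicate 1 had 511 CPM of Lama5, where the others had 656 to 702 CPM. KO control replicate 5 had 2516 CPM of Itgb1, where the others had 4495 to 5492 CPM. Het LPS+IFNγ replicate 2 had 3.12 CPM of Itgb4, where the others had 27.4 to 50.2 CPM.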

How the results depend on the processing

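The number of integrin and laminin genes called after stimulation depended on the libraries and the fit. In the 20 libraries it was 0 in both genotypes, and without animals 4 and 8 it was 2 in het and 3 in KO cells. In the 16 libraries the 2 called in het cells became 4 with DESeq2, 0 with limma-voom, 0 with no filter on low counts, 0 with 2 groups only, 0 without animals 5 and 7, 10 when each animal was a block and 4 with a block of estimated correlation. Leaving out 1 library gave 0 to 2, where 5.34% to 7.5% of all genes were called. The 3 called in KO cells became 6 when each animal was a block and 0 without animals 5 and 7; leaving out 1 library gave 1 to 3, where 3.9% to 7.66% of all genes were called. The same settings moved the counts over all genes: 1046 in het cells became 1675 with DESeq2, 2724 with the block, 3142 with the block of estimated correlation, 604 without animals 5 and 7 and 438 with 2 groups only. In KO cells 843 became 1321, 1968, 2057, 462 and 1521. Fewer libraries entered the fits without animals 5 and 7; for the other settings the cause was not tested. Over the 21 genes described in full and 5 comparisons in the 16 libraries, 2527 of 2581 alternative values stayed on the same side of the threshold, 41 lost a call, 13 gained one and 0 called values changed sign. Only called results could lose a call, and most values were of results not called. In het cells Itga2 kept its call in 3 of 16 fits without 1 library and in 5 of 9 other settings. Lama1 in het cells kept it in 11 of 16 and 4 of 9. In KO cells Lama1 kept it in 16 of 16 and 8 of 9, Itga1 in 11 and 8, and Lama4 in 12 and 6. In the 20 libraries 3098 of 3103 stayed and 5 gained a call. The genotype comparisons stayed at 0 in the alternatives run with edgeR, DESeq2 and limma-voom. Depth limits Itgal, Itgam and Itgax, which had 0 counts in some libraries.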
